A study of Mus musculus with 10 samples.

Results

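The glycolysis and hypoxia genes are a list of 34 genes chosen by symbol, out of 49585 genes in the count tables, and all 34 had a row in the tables. They comprise 13 glycolytic enzymes (Hk1, Hk2, Gpi1, Pfkl, Pfkp, Aldoa, Tpi1, Gapdh, Pgk1, Pgam1, Eno1, Pkm and Ldha), 5 genes of glucose and lactate transport and of flux control (Slc2a1, Slc16a3, Pfkfb3, Pfkfb4 and Pdk1) and 16 hypoxia targets (Bnip3, Bnip3l, Ndrg1, Vegfa, Car9, Egln1, Egln3, Ankrd37, Adm, P4ha1, P4ha2, Kdm3a, Higd1a, Mxi1, Ddit4 and Ak4). Their levels were compared between organoids labelled Ck19-derived and organoids labelled Sox9-derived, 2 libraries each, in bulk RNA-seq of the mouse Rb family Triple Knock Out model of hepatocellular carcinoma. In that model floxed alleles were recombined by Cre and the cells were sorted for YFP, per the labels. The driver of Cre, the age and sex of the animals, the culture conditions, and whether a group's 2 libraries had separate animals or cultures as their source are not given in the sources used here, so p-values measure the spread between these libraries, which may be technical. A further 2 columns carried Sox9 together with a TKO tag and were kept apart as another possible source for the Sox9-derived group. The Epcam-, Epcamhigh and Thy1+ samples were not analysed here.

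Glycolysis splits glucose into pyruvate, which is either reduced to lactate or passed to the mitochondria. When oxygen is short, prolyl hydroxylases stop marking the alpha subunits of hypoxia-inducible factor (HIF) for destruction, and HIF then binds hypoxia response elements beside genes of glucose uptake, glycolysis, mitophagy, angiogenesis and pH control. In normal liver the hepatocyte uses its own forms of several transporters and enzymes, and makes glucose as well as using it, whereas proliferating epithelial cells and many tumours express the broadly distributed forms listed here.

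Both organoid pairs held 31883180 to 36606008 fragments assigned to genes. Levels are given as CPM, the fragments of a gene per 1000000 assigned, and 3 fragments correspond to at most 0.0941 CPM. Biliary markers were high in all 4 organoid libraries. Krt19 was at 2453 and 1945 CPM in the Ck19-derived and 3120.2 and 2987 CPM in the Sox9-derived libraries. Alb, the hepatocyte product albumin, was at 1.24 to 20.4 CPM. The 6 hepatocyte markers (Alb, Apoa1, Ttr, Cps1, Hnf4a and Cyp3a11) summed to 259 and 288 CPM in the Ck19-derived and 275 and 627 CPM in the Sox9-derived libraries. Of the 3 with enough fragments to be tested, Ttr had both Sox9-derived values above both Ck19-derived ones. Hnf4a had both below and Alb overlapped. edgeR called none of the 3, while DESeq2 called Ttr higher. The 7 biliary markers were not alike in the groups: they summed to 14294 and 14048 CPM in the Ck19-derived and 31265 and 26985 CPM in the Sox9-derived libraries. edgeR called Sox9 (97.0 and 78.4 CPM against 567 and 562 CPM, adjusted p = 0.0386) higher in the Sox9-derived pair. It also called Spp1 higher (7434 and 7744 CPM against 22830.3 and 18279 CPM, adjusted p = 0.0467), beside 0.57% of all genes called. In 5 of the 7 both Sox9-derived values lay above both Ck19-derived ones (24.6% of all genes). Cldn4 had both below, at 219.5 and 374 CPM against 114 and 33.4 CPM, and edgeR did not call it. DESeq2 called Cldn4 lower (adjusted p = 0.00403, beside 5.28% of all genes) and 3 of the 7 higher (3.97%). The part of these marker differences in the values of the glycolysis and hypoxia genes was not tested. The 4 myeloid markers (Ptprc, Adgre1, Cd68 and Csf1r) summed to 84.3 and 46.9 CPM in the Ck19-derived and 18.1 and 26.4 CPM in the Sox9-derived libraries. They did not all go the same way. Cd68 had a log2 fold change, Sox9-derived over Ck19-derived, of -1.99, and Csf1r of 0.59 with overlapping groups. edgeR called neither, while DESeq2 called Cd68 lower (adjusted p = 0.0162). Ptprc and Adgre1 had too few fragments to be tested. The part of myeloid cells in the differences was not tested. Endothelial and mesenchymal markers summed to at most 0.659 and 2.23 CPM in any organoid library. Of the Rb family, Rb1 was at 21.0 and 21.8 CPM against 14.5 and 12.6 CPM (Ck19-derived against Sox9-derived), Rbl1 at 4.05 and 1.86 CPM against 2.84 and 1.30 CPM and Rbl2 at 7.78 and 6.99 CPM against 8.77 and 7.36 CPM, none of them called. Such a count over the whole gene can hold exons outside a deleted part and does not check the knockout. The groups also differed in the sex of their source: Xist had 1923 and 1869 fragments in Ck19-derived organoids and 1 and 1 in Sox9-derived ones, and the Y-linked Eif2s3y had 3 and 3 against 3383 and 2615. A difference between the groups therefore cannot be told apart from a difference between animals. In bulk RNA, fewer cells expressing a gene and less RNA per cell cannot be told apart either.

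The promoters of 5 members that separated the organoid groups are shown because HIF binds its core element, ACGTG or GCGTG, close to many of these genes. Each line gives RefSeq's window of 250 bases before to 50 bases after a transcript start on GRCm38.p6, 5′ to 3′. Capitals mark ACGTG or GCGTG on either strand. The first form also lies inside the E-box CACGTG. Bnip3, P4ha2, Egln1 and Egln3 were lower in both Sox9-derived libraries than in both Ck19-derived libraries, and Eno1, shown for the first of its 3 starts, was higher. The windows are chr7:138909457-138909756 on the minus strand for Bnip3, chr11:54100674-54100973 on the plus strand for P4ha2, chr8:124949205-124949504 on the minus strand for Egln1, chr12:54203825-54204124 on the minus strand for Egln3 and chr4:150236458-150236757 on the plus strand for Eno1.
Bnip3: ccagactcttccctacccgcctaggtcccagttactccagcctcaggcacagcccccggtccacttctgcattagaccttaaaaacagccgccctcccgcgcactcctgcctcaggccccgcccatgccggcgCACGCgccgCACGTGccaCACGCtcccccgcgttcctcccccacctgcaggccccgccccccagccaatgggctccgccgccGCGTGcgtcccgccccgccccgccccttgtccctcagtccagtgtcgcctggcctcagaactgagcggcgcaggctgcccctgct
P4ha2: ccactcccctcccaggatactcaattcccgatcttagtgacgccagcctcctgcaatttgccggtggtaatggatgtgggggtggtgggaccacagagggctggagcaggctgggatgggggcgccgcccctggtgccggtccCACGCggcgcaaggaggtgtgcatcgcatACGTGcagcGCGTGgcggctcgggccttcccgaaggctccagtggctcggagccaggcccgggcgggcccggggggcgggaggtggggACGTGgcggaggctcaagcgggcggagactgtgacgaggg
Egln1: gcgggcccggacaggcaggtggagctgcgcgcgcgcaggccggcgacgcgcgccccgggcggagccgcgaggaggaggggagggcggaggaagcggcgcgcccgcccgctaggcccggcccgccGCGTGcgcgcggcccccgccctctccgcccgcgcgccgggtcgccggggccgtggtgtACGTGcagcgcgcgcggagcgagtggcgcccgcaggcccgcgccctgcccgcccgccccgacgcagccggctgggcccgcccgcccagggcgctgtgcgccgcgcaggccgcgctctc
Egln3: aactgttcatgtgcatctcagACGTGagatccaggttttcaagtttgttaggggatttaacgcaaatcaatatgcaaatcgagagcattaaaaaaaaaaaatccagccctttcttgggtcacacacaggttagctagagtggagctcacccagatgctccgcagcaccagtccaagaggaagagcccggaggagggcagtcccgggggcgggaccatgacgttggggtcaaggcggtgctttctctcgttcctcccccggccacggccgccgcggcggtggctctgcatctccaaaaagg
Eno1: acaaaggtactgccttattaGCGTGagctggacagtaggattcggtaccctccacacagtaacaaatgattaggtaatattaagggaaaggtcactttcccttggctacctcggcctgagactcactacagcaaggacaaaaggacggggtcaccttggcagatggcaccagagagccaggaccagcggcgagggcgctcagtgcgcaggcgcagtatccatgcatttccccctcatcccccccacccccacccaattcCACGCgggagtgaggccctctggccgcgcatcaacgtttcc

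The Bnip3 window held 5 matches, P4ha2 4, Egln1 2, Egln3 1 and Eno1 2. The CACGTG in the Bnip3 window holds the element on both strands and was counted once for each strand. RefSeq windows were matched for 32 of the 34 members. Ndrg1 and Bnip3l had no entry in the table. At least 1 window of the gene held the element in 11 of 13 enzymes, 5 of 5 transport and flux genes and 14 of 14 hypoxia targets, beside 47.0% of all 26742 genes. Over single windows it was in 39 of 49 windows of members and in 44.0% of all windows. Gpi1 and Tpi1 were the enzymes without a match. A match describes these letters and not a bound site, and the part of the element in the differences was not tested.

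Across the 34 genes, levels were mostly lower in the Sox9-derived than in the Ck19-derived organoids, but no single gene passed the test. The fitted log2 fold change, Sox9-derived over Ck19-derived, was below 0 in 29 of 34 members, where 49.6% of the 16653 genes tested were below 0. Its median was -0.75 over the members and 0.006 over all genes. All 34 members passed the filter on low counts. edgeR's quasi-likelihood test called 0 of them at a Benjamini-Hochberg adjusted p of 0.05, with 0.57% of all genes called, and the members' adjusted p ran from 0.0753 to 0.995. At an unadjusted p of 0.05, 14 members were lower and 1, Eno1, was higher, against 9.12% and 7.64% of all genes. In 21 members both Sox9-derived values lay below both Ck19-derived values (26.3% of all genes), and in 2, Eno1 and Slc16a3, both lay above (24.6%). The difference was -1 or less on the log2 scale in 14 members, beside 12.4% of all genes.

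The count of calls depended on the tool and on single libraries. limma-voom called 0 members and 0.558% of all genes, and edgeR with all 6 libraries in 1 fit 0 members and 0.0763%. DESeq2 called 12 members and 9.26% of the genes it tested, of which 11 were lower (5.28% of all genes) and 1 was higher (3.97%). edgeR called 6 members without a count filter, where 1.52% of genes were called. It called 12 members without Sox9-derived library 1 (7.67% of genes) and 6 without Sox9-derived library 2 (5.35%). In each of these fits Eno1 was the 1 member called higher. Leaving out either Ck19-derived library gave 0 calls over all genes.

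**Figure D1:**
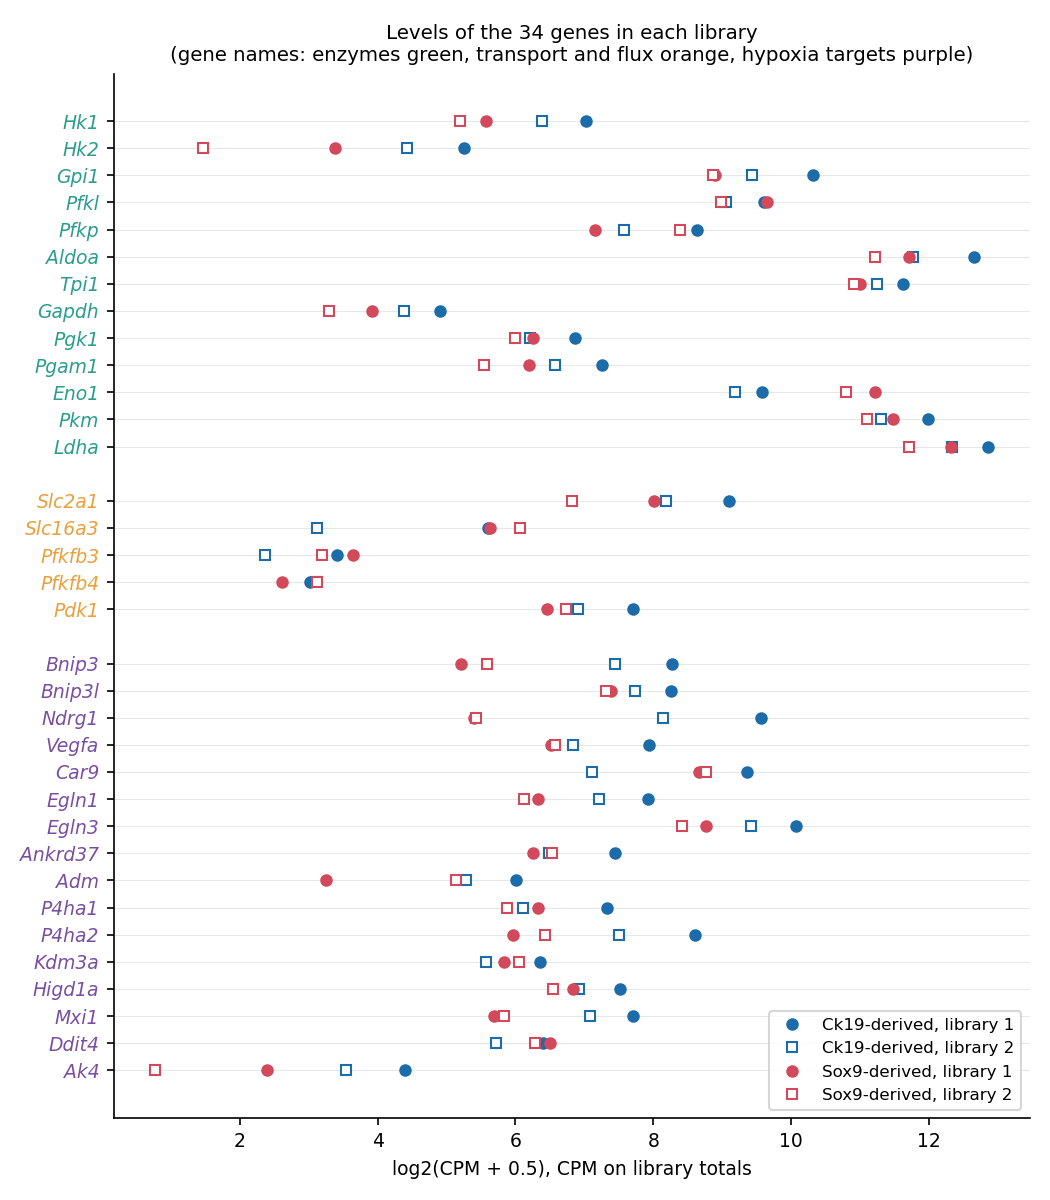
Levels of the 34 genes as log2(CPM + 0.5) in each of the 4 organoid libraries, with circles for library 1, squares for library 2, blue for Ck19-derived and red for Sox9-derived. The Ck19-derived libraries lie to the right for most genes, with Ck19-derived library 1 above library 2 in 33 of 34, and Eno1 and Slc16a3 are the genes with both red points to the right of both blue ones.

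Among the glycolytic enzymes the fitted difference was below 0 in 12 of 13, with a median of -0.58. Both Sox9-derived values were below both Ck19-derived values in 8 (26.3% of all genes) and above in 1, Eno1 (24.6%). They overlapped in 4 (Pfkl, Pfkp, Pgk1 and Pkm). Together the 13 enzymes took 2.48% and 1.60% of all fragments in Ck19-derived organoids and 1.74% and 1.31% in Sox9-derived ones, so the second Ck19-derived library lay between the Sox9-derived ones. DESeq2 called 4 enzymes lower (Hk1, Hk2, Gpi1 and Pgam1), beside 5.28% of all genes it tested, and Eno1 higher, beside 3.97%.

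Per length, as CPM divided by exon length (FPKM), the most abundant members were Ldha, Aldoa and Tpi1. Ldha, the subunit of lactate dehydrogenase that favours lactate, was at 2251 and 1569 FPKM in Ck19-derived organoids and 1542 and 1013 FPKM in Sox9-derived ones. Aldoa, the broadly expressed aldolase, was at 1716 and 932 FPKM and 892 and 637 FPKM. Tpi1, triosephosphate isomerase, was at 1148 and 883 FPKM and 748 and 699 FPKM. All 3 were lower in both Sox9-derived libraries, by amounts close to the spread inside a pair: the log2 fold change was -0.58 (SE 0.28, adjusted p = 0.383) for Ldha, -0.79 (SE 0.35, adjusted p = 0.343) for Aldoa and -0.49 (SE 0.19, adjusted p = 0.290) for Tpi1. Pkm, the muscle-type pyruvate kinase gene that proliferating cells use, came next, at a mean of 659 ± 216 FPKM (SD, n = 2) and 507 ± 92.7 FPKM, and its groups overlapped.

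The first step of the pathway differed the most among the enzymes that were lower. Hk1, the broadly expressed hexokinase, was at 129.6 and 83.5 CPM in Ck19-derived organoids and 46.9 and 36.0 CPM in Sox9-derived organoids, a log2 fold change of -1.37 (SE 0.29, adjusted p = 0.130). Hk2, the inducible hexokinase, was at 37.7 and 20.9 CPM in Ck19-derived organoids and 9.89 and 2.26 CPM in Sox9-derived organoids, a log2 fold change of -2.28 (SE 0.77, adjusted p = 0.245). The 2 Sox9-derived values of Hk2 differed by 4.37-fold from each other, and its standard error was the largest among the enzymes. Gpi1, glucose-6-phosphate isomerase, was at 1272 and 693 CPM in Ck19-derived organoids and 474 and 465 CPM in Sox9-derived organoids, a log2 fold change of -1.07 (SE 0.32, adjusted p = 0.211), with Sox9-derived libraries that were nearly equal. Pgam1, phosphoglycerate mutase, was at 152 and 95.0 CPM in Ck19-derived organoids and 73.0 and 46.1 CPM in Sox9-derived organoids, a log2 fold change of -1.05 (SE 0.34, adjusted p = 0.233). Gapdh, glyceraldehyde-3-phosphate dehydrogenase, was at 29.3 and 20.4 CPM in Ck19-derived organoids and 14.7 and 9.29 CPM in Sox9-derived organoids, a log2 fold change of -1.06 (SE 0.36, adjusted p = 0.253). In none of these genes did the groups overlap.

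The remaining enzymes showed little separation. Pfkl and Pfkp, the liver-type and platelet-type phosphofructokinases, had log2 fold changes of -0.01 and -0.30. Pfkl reached 784 and 534 CPM against 808 and 505 CPM, so each pair held 1 high and 1 low library. Pfkp ran from 142 to 335 CPM inside the Sox9-derived pair. Pgk1, phosphoglycerate kinase, was at 116 and 73.8 CPM against 76.2 and 63.0 CPM, and its groups overlapped by a small margin. Pkm was at 4060.0 and 2534 CPM against 2865 and 2209 CPM, also with overlap.

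Eno1, which encodes alpha-enolase (ENSMUSG00000063524, chr4:150236721-150248879 on GRCm38), stood apart from the other enzymes. It was at 763 and 581 CPM in Ck19-derived organoids and 2376 and 1773 CPM in Sox9-derived organoids. Both Sox9-derived values were above both Ck19-derived values, and the fitted level was 3.08-fold higher, a log2 fold change of 1.62 (SE 0.24, adjusted p = 0.0772). edgeR did not call it, while DESeq2 did (adjusted p = 5.87e-08). An annotated copy of this gene, Eno1b, had its difference the other way: 763 and 563 CPM against 289 and 223 CPM, a log2 fold change of -1.38 (SE 0.24, adjusted p = 0.102). Eno1b took 50.01% and 49.2% of the fragments of the 2 genes together in Ck19-derived organoids, but 10.9% and 11.2% in Sox9-derived ones. The sum of the 2 genes was 1526 and 1144 CPM in Ck19-derived organoids and 2665 and 1996 CPM in Sox9-derived ones, a 1.75-fold higher mean. The groups still did not overlap on the sum, and the ratio was smaller than for Eno1 alone. How many fragments each of the 2 genes lost or gained by mapping to the other was not tested.

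**Figure D2:**
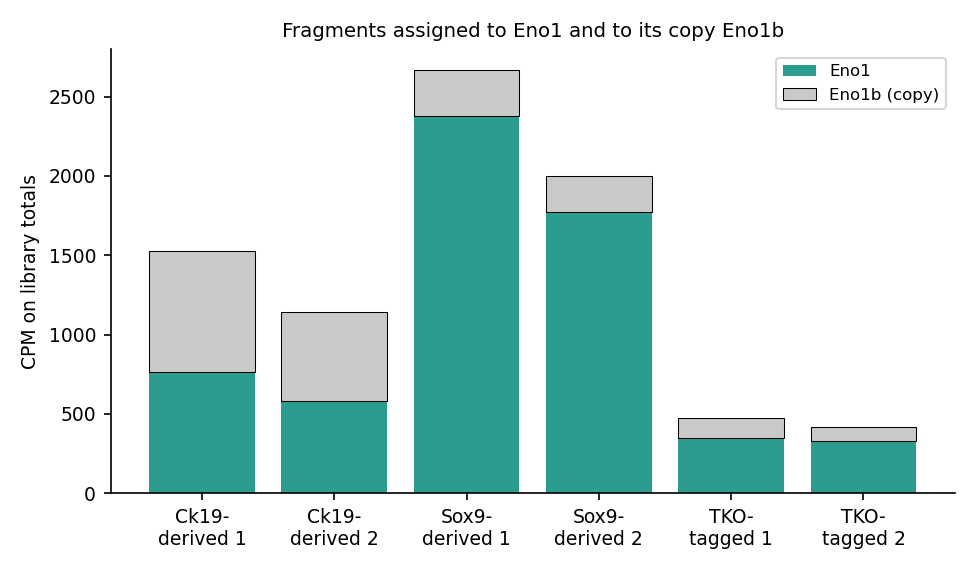
Stacked bars give the CPM assigned to Eno1 (green) and to its copy Eno1b (grey) in each of the 6 libraries. The grey part is about as tall as the green part in both Ck19-derived libraries (50.01% and 49.2% of the sum) and much smaller in both Sox9-derived libraries (10.9% and 11.2%).

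Copies bear on several other members, since fragments that fit more than 1 place had a low mapping quality and were dropped before counting. The share of fragments dropped for mapping quality was 40.0% and 38.8% in Ck19-derived organoids and 33.2% and 34.4% in Sox9-derived ones, so it moved with the groups, and its part in the differences was not tested for each gene. Of the 34 members, 8 shared more than 20% of their 50-base stretches with transcripts of other genes in GENCODE M21, and 10 shared none. Pgk1 shared 53.9%, Bnip3 47.2%, Pgam1 36.2%, Eno1 26.0%, Pkm 25.8%, Gapdh 25.1%, Higd1a 24.4% and Bnip3l 20.8%. Gapdh shared stretches with 233 other genes, 215 of them pseudogenes. Its level per length was 6.02 ± 1.52 FPKM (SD, n = 2) in the Ck19-derived and 2.90 ± 0.920 FPKM in the Sox9-derived libraries, whereas its neighbour in the pathway, Tpi1, was at 1015 ± 187 and 724 ± 34.5 FPKM. How much of the signal of Gapdh, Pgk1 and Pgam1 was dropped in this way was not tested. Since strand was not used, fragments of overlapping genes could not be told apart either, and such overlaps covered 26.4% of the exon bases of Ankrd37, 22.5% of Higd1a and 22.3% of Bnip3. Leaving genes out moved the median log2 fold change of the enzymes, -0.58, either way: it was -0.49 without the enzymes that have a copy named after them, and -0.69 without those over 20%, a choice made after seeing the data. Without the hypoxia targets over 20%, their median was -1.18.

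Of the transport and flux genes, 3 of 5 were below 0 and 2 above, with a median of -0.18. Slc2a1, the glucose transporter GLUT1, was at 547 and 291 CPM in Ck19-derived organoids and 258 and 113 CPM in Sox9-derived organoids, a log2 fold change of -1.18 (SE 0.50, adjusted p = 0.332). Its groups did not overlap, by a margin of 291 to 258 CPM. Pdk1, a kinase that turns off pyruvate dehydrogenase, was likewise lower in both Sox9-derived libraries, at 208 and 119 CPM against 87.4 and 106 CPM. Slc16a3, the lactate exporter MCT4, was the other member with both Sox9-derived values above: 47.9 and 8.21 CPM in Ck19-derived organoids and 49.1 and 66.2 CPM in Sox9-derived organoids, a log2 fold change of 1.04 (SE 0.81, adjusted p = 0.585). Its higher Ck19-derived value was close to the lower Sox9-derived one, and without Ck19-derived library 2 the log2 fold change was 0.24. Pfkfb3 and Pfkfb4, which set the level of fructose-2,6-bisphosphate and through it the rate of phosphofructokinase, were low and overlapped, at 10.1 and 4.64 CPM against 11.9 and 8.66 CPM for Pfkfb3 and 7.62 and 8.09 CPM against 5.60 and 8.20 CPM for Pfkfb4. DESeq2 called 0 of the 5 genes, beside 9.26% of all genes it tested.

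The hypoxia targets showed the lowest median of the 3 groups. Their fitted difference was below 0 in 14 of 16, with a median of -1.07. In edgeR's test 8 were lower at an unadjusted p under 0.05 (9.12% of all genes). Both Sox9-derived values lay below both Ck19-derived values in 11 (26.3% of all genes), and the groups overlapped in the other 5 (Car9, Ankrd37, P4ha1, Kdm3a and Ddit4). Summed over the 16 genes the level was 4958 and 2496 CPM in Ck19-derived organoids and 1800 and 1753 CPM in Sox9-derived ones. DESeq2 called 7 of them lower, beside 5.28% of all genes it tested: Bnip3, Ndrg1, Egln1, Egln3, P4ha2, Mxi1 and Ak4.

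The gene with the lowest fitted ratio was Ndrg1 (ENSMUSG00000005125, chr15:66929321-66969640), a stress- and hypoxia-responsive gene linked to differentiation. It was at 761 and 283 CPM in Ck19-derived organoids and 41.8 and 42.4 CPM in Sox9-derived organoids. The Sox9-derived values were nearly equal and the fitted level was 12.4-fold lower, a log2 fold change of -3.64 (SE 0.53, adjusted p = 0.0772), although the Ck19-derived values themselves differed by 2.69-fold. Bnip3 (ENSMUSG00000078566, chr7:138890836-138909519), a receptor for mitophagy, was at 307 and 174 CPM in Ck19-derived organoids and 36.6 and 47.5 CPM in Sox9-derived organoids, 5.72-fold lower, with a log2 fold change of -2.52 (SE 0.35, adjusted p = 0.0753). Bnip3 shares 47.2% of its 50-base stretches with other genes. Its relative Bnip3l, with the same role, differed less, at 305 and 212 CPM against 166 and 158 CPM and a log2 fold change of -0.67. Mxi1, an antagonist of Myc that pairs with Max, was at 208 and 134 CPM in Ck19-derived organoids and 51.2 and 56.5 CPM in Sox9-derived organoids, a log2 fold change of -1.67 (SE 0.27, adjusted p = 0.0894). In Ndrg1, Bnip3 and Mxi1 the lower Ck19-derived value was well above both Sox9-derived ones.

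Both prolyl hydroxylases of the list, which mark HIF alpha subunits for destruction and are themselves HIF targets, were lower. Egln1, the main oxygen sensor of the family, was at 242 and 147 CPM in Ck19-derived organoids and 80.1 and 69.3 CPM in Sox9-derived organoids, a log2 fold change of -1.38 (SE 0.29, adjusted p = 0.126). Egln3 was at 1076 and 687 CPM in Ck19-derived organoids and 437 and 342 CPM in Sox9-derived organoids, a log2 fold change of -1.18 (SE 0.28, adjusted p = 0.151). Egln3 was also the more abundant of the 2 per length, at 331 ± 104 FPKM (SD, n = 2) against 54.2 ± 18.6 FPKM for Egln1 in the Ck19-derived libraries. The groups did not overlap for either gene.

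Of the catalytic subunits of collagen prolyl 4-hydroxylase, P4ha2 separated the groups and P4ha1 did not. P4ha2 was at 390.4 and 180.4 CPM in Ck19-derived organoids and 61.6 and 85.9 CPM in Sox9-derived organoids, a log2 fold change of -1.95 (SE 0.44, adjusted p = 0.135). P4ha1 was at 159.7 and 68.7 CPM against 79.7 and 58.0 CPM, and the lower Ck19-derived library lay between the Sox9-derived ones. Ak4, a mitochondrial adenylate kinase, was at 20.6 and 11.2 CPM in Ck19-derived organoids and 4.75 and 1.21 CPM in Sox9-derived organoids, a log2 fold change of -2.42 (SE 0.76, adjusted p = 0.223). Adm, the vasoactive peptide adrenomedullin, was at 63.7 and 38.3 CPM in Ck19-derived organoids and 9.04 and 34.5 CPM in Sox9-derived organoids, a log2 fold change of -1.22 (SE 0.68, adjusted p = 0.444). Its groups were separated by a small margin, with Sox9-derived library 2 close to Ck19-derived library 2. Vegfa, the angiogenic growth factor, was at 246 and 114 CPM against 91.0 and 94.9 CPM, and Higd1a, a mitochondrial protein induced by hypoxia, at 183 and 121 CPM against 114 and 93.0 CPM, both without overlap and with log2 fold changes of -0.95 and -0.56.

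The other hypoxia targets did not separate the groups. Car9, the cell-surface carbonic anhydrase that is among the most used markers of hypoxia, was at 656 and 138 CPM in Ck19-derived organoids and 404 and 435 CPM in Sox9-derived organoids. The Ck19-derived values differed by 4.77-fold and enclosed both Sox9-derived values, so that the log2 fold change was 0.08 (SE 0.71, adjusted p = 0.973). Ddit4, an inhibitor of mTOR signalling, was at 83.9 and 51.9 CPM against 90.2 and 77.1 CPM, Kdm3a, a histone demethylase, at 81.2 and 47.1 CPM against 56.7 and 66.1 CPM, and Ankrd37, an ankyrin repeat protein, at 174 and 89.2 CPM against 76.0 and 91.6 CPM. In these 3 genes and in Car9, Ck19-derived library 2 was below at least 1 Sox9-derived library while library 1 was above or within their range.

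**Figure D3:**
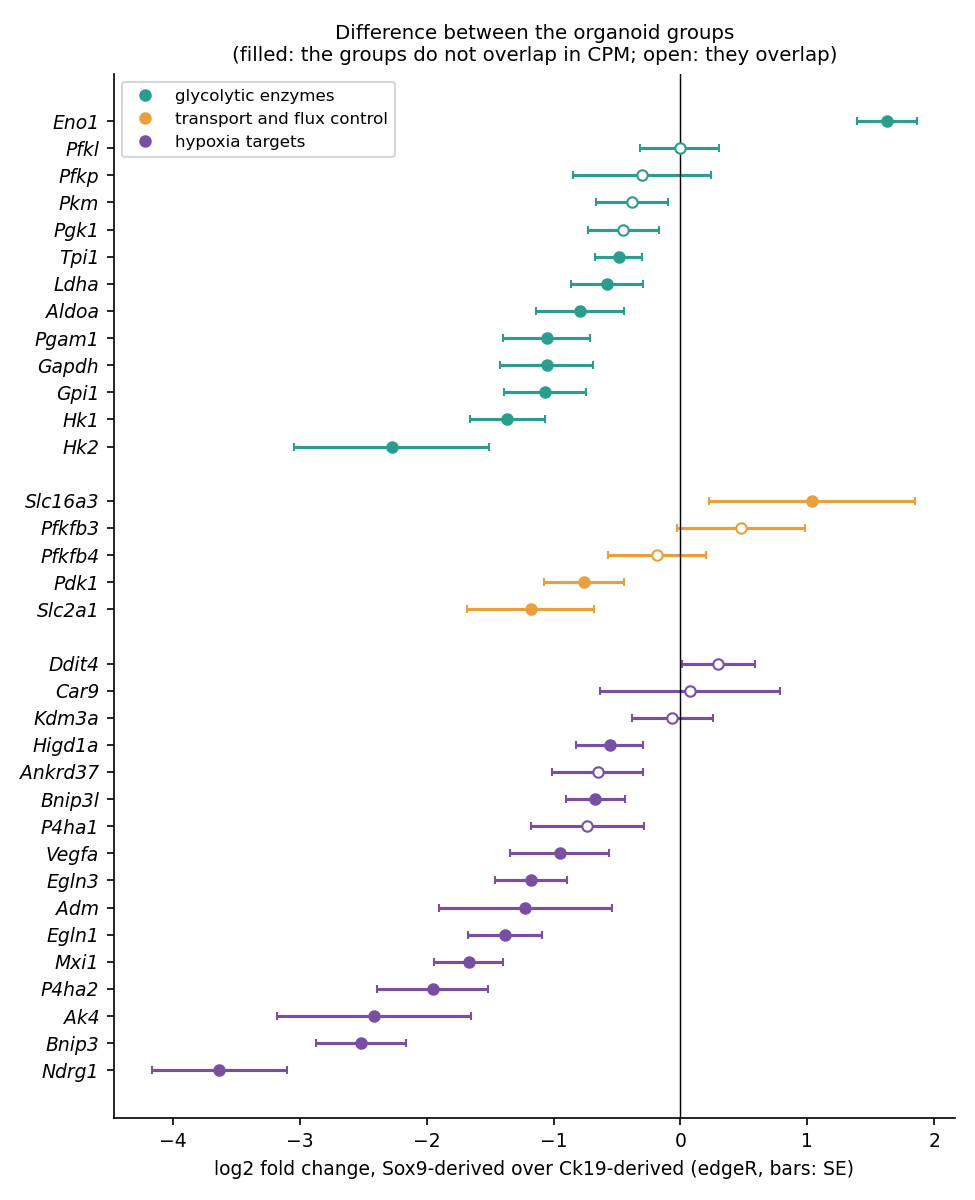
Fitted log2 fold change, Sox9-derived over Ck19-derived, with its standard error, for each of the 34 genes, ordered within enzymes (green), transport and flux genes (orange) and hypoxia targets (purple). Filled points, 23 in all, are genes whose groups do not overlap in CPM. Points left of 0 number 29, from Ndrg1 at -3.64, and Eno1 lies farthest right at 1.62.

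The 2 Ck19-derived libraries differed from each other in one direction across almost the whole list. Library 1 was above library 2 in 33 of 34 members, with Pfkfb4 the exception, against 48.9% of all genes. It was at least 1.5-fold above in 27 of 34 (8 enzymes, 4 transport and flux genes and 15 hypoxia targets), beside 17.4% of all genes. The ratio of library 1 to library 2 ran from 1.30 to 2.10 over the enzymes and from 1.44 to 4.77 over the hypoxia targets, and reached 5.83 for Slc16a3. The median log2 difference was 0.65 for the enzymes, 0.91 for the transport and flux genes and 0.80 for the hypoxia targets, against -0.012 over all genes. Inside the Sox9-derived pair, library 1 was above library 2 in 21 of 34 members, against 50.4% of all genes. Here the lists parted: 12 of 13 enzymes were higher in library 1, but 7 of 16 hypoxia targets, with medians of 0.42 and -0.04. Thus for the enzymes the median difference between the groups was no larger than the median difference inside the Ck19-derived pair. For the hypoxia targets it was 1.07 below 0 against a within-pair difference of 0.80. A group difference rests on 2 libraries per group and a within-pair difference on single libraries, so their sizes are not directly comparable. Without Ck19-derived library 1, the medians between the groups were -0.28 for the enzymes and -0.59 for the hypoxia targets.

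**Figure D4:**
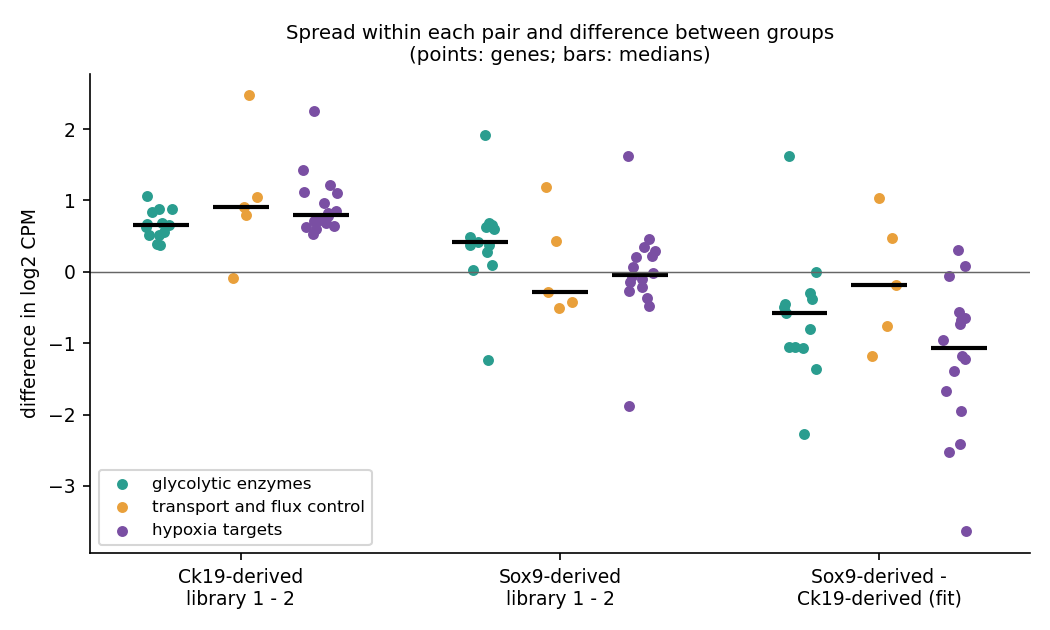
Each point is a gene, in green for enzymes, orange for transport and flux genes and purple for hypoxia targets, and black bars are medians. The left and middle sets give the log2 difference between library 1 and library 2 of the Ck19-derived and Sox9-derived pairs, and the right set the fitted difference between the groups. The left set lies above 0 for 33 of 34 genes, and the right set has medians of -0.58, -0.18 and -1.07.

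Other genes of the same pathways were counted from 4 further lists, and edgeR called none of their members. DESeq2 called 3 of the other glycolytic isoenzymes and 8 of the other HIF targets lower (5.28% of all genes). It called 0 genes of these lists higher (3.97%). Of 20 other glycolytic isoenzymes 17 were tested, 11 below 0 and 6 above, with a median of -0.36. The smallest p-values there were those of Aldoc, a further aldolase, at 602 and 358 CPM against 219 and 162 CPM (log2 fold change -1.34, adjusted p = 0.151), and Pgm1, a phosphoglucomutase, at 446 and 262 CPM against 158 and 120.0 CPM (-1.35, adjusted p = 0.150). Of 28 other HIF targets found 27 were tested, 19 below 0 and 8 above, with a median of -0.76. Hilpda, a lipid droplet protein, was at 162 and 116 CPM against 34.2 and 34.3 CPM (-2.02, adjusted p = 0.0567). Ero1l, an oxidase of disulfide formation, was at 582 and 187 CPM against 44.2 and 33.4 CPM (-3.32, adjusted p = 0.104). In these 4 genes, picked by their p-values, both Sox9-derived values lay below both Ck19-derived ones. Among all tested genes of the 2 lists this held for 7 of 17 isoenzymes and 15 of 27 other HIF targets (26.3% of all genes). Both values lay above in 1 isoenzyme and 2 other HIF targets (24.6%).

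The genes that handle pyruvate and the HIF system itself had medians near 0. Of 16 genes of pyruvate and lactate handling 13 were tested, 6 below 0 and 7 above, with a median of 0.11. The 2 pyruvate dehydrogenase phosphatases had the smallest p-values, with Pdp1 at 22.4 and 21.3 CPM against 34.99 and 36.6 CPM (log2 fold change 0.71, adjusted p = 0.211) and Pdp2 at 4.70 and 5.80 CPM against 2.95 and 2.20 CPM (-1.03, adjusted p = 0.355). Of the 9 genes of the HIF system 6 were below 0 and 3 above, with a median of -0.12. Arnt2, a partner of HIF alpha subunits, was at 3.36 and 5.28 CPM against 11.0 and 10.1 CPM (1.29, adjusted p = 0.220), and Cited2, which competes with HIF for a coactivator, at 241 and 154 CPM against 118 and 103 CPM (-0.84, adjusted p = 0.231). The transcript of Hif1a, whose product is mainly controlled through protein stability, was at 62.9 and 48.0 CPM against 63.8 and 60.4 CPM, with overlapping groups and a log2 fold change of 0.16.

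The columns that carry Sox9 with a TKO tag showed markers of other cells than the organoids. Alb was at 21740.3 and 13158 CPM there, Krt19 at 0.619 and 1.61 CPM and Epcam at 8.99 and 5.61 CPM. The 6 hepatocyte markers summed to 49216 and 38139 CPM, against 259 to 627 CPM in the organoids, and the 7 biliary markers to 507 and 1157 CPM against 14048 to 31265 CPM. The endothelial markers summed to 81.4 and 48.9 CPM, the mesenchymal to 241 and 167 CPM, the myeloid to 204 and 93.9 CPM, the lymphoid to 10.4 and 5.68 CPM and the erythroid to 216 and 1750.5 CPM. What these 2 libraries are is not given by the labels beyond the column name, and the part of the mixture of cells in the values below was not tested.

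Against the Ck19-derived pair, 21 of 34 members fell in the TKO-tagged pair by edgeR's test with TMM scaling and 0 rose, with 14.0% of all genes called lower. They were 8 of 13 enzymes, 2 of 5 transport and flux genes and 11 of 16 hypoxia targets, and the median log2 fold changes were -1.62, -3.67 and -2.18, against -0.07 over all genes. The further lists showed a smaller fall or none, and only the HIF system had more genes called lower than higher. Of 27 other HIF targets 4 were called lower and 6 higher (median -0.46). Of 18 other glycolytic isoenzymes 2 were lower and 5 higher (-0.29). Of 16 pyruvate and lactate genes 2 were lower and 8 higher (1.17), and of 9 HIF system genes 3 and 1 (-0.32). Over all 17938 genes tested, 2507 were called lower and 2683 higher. The counts depended on the scaling: on library totals, the scale of the CPM values, the median over all genes was -0.82, 27 members were called lower and 0 higher, and 28.8% of all genes were called lower. Of all calls, 48.3% were lower with TMM and 72.5% on library totals. On library totals the members' medians were -2.38, -4.44 and -2.93. Both TKO-tagged values were below both Ck19-derived values in 31 members on library totals (58.9% of all genes) and in 26 on the TMM scale (38.2%). They were below both Sox9-derived values in 29 members on library totals (55.7%) and in 22 on the TMM scale (34.1%). This comparison shares the Ck19-derived libraries with the one above. Its groups also differed in sex: Xist had 1923 and 1869 fragments in Ck19-derived libraries and 2 and 1 in TKO-tagged ones. Eif2s3y had 3 and 3 against 3770 and 3713. The TKO-tagged columns were deposited apart from the organoid columns and held 53280136 and 59664959 assigned fragments. Mitochondrial genes took 2.78% and 1.60% of these, against 0.728% and 0.794% in the Ck19-derived libraries. The part of each in the differences was not tested.

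The log2 fold changes that follow are on the TMM scale and the CPM on library totals. Among the enzymes, Pkm was at 76.1 and 51.7 CPM in the TKO-tagged libraries, a log2 fold change of -4.93 against the Ck19-derived pair (adjusted p = 0.00377). Hk1 was at 3.34 and 1.06 CPM (-4.83, adjusted p = 0.0110) and Aldoa at 437 and 401 CPM (-2.82, adjusted p = 0.0128). Tpi1 and Ldha were at 1659.6 and 1167 CPM and 2198 and 2711 CPM, with log2 fold changes of -0.22 and -0.61 that were not called. On library totals these were -0.98, not called, and -1.36, called (adjusted p = 0.0328). Among the hypoxia targets, Car9 was at 0.938 and 0.888 CPM (-8.02, adjusted p = 0.00735), Egln3 at 14.2 and 3.35 CPM (-5.88, adjusted p = 0.0118) and P4ha2 at 4.69 and 4.22 CPM (-5.25, adjusted p = 0.00391). Ndrg1 and Ak4 were the members with both TKO-tagged values above both Sox9-derived values on library totals, at 169.6 and 49.6 CPM for Ndrg1 and 19.5 and 21.5 CPM for Ak4. The 3 members whose TKO-tagged and Ck19-derived values overlapped on library totals were Pfkfb3, Pfkfb4 and Ak4.

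For glucose uptake and pyruvate kinase, a liver form was set beside its broadly expressed counterpart in the TKO-tagged libraries, per length on library totals. Slc2a2, the liver glucose transporter, was at 26.9 and 53.4 FPKM beside Slc2a1 at 8.90 and 2.14 FPKM. Pklr, the liver and red cell pyruvate kinase, was at 15.3 and 8.83 FPKM beside Pkm at 15.2 and 10.3 FPKM, and at 4.97 to 6.88 FPKM in the organoids.

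**Figure D5:**
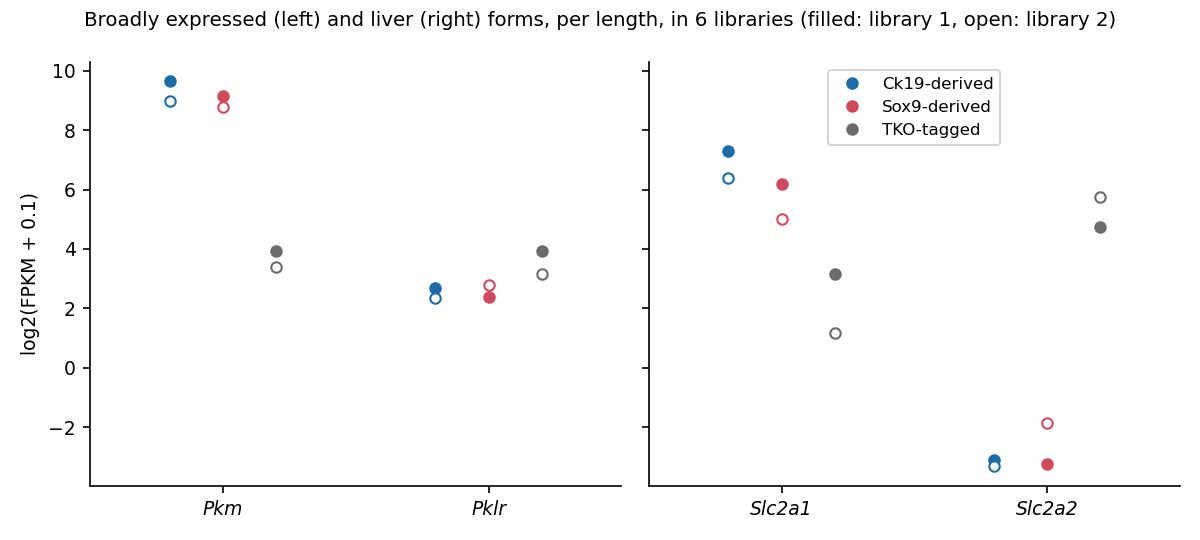
Each panel sets a broadly expressed gene (left) beside the liver form (right), as log2(FPKM + 0.1), in the Ck19-derived (blue), Sox9-derived (red) and TKO-tagged (grey) libraries, filled for library 1 and open for library 2. Grey points are the lowest for Pkm and Slc2a1 and the highest for Pklr and Slc2a2.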

How the data were processed

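Bulk RNA-seq of mouse liver cells and organoids comprised 10 samples in 5 groups of 2 by the labels. The authors counted fragments with featureCounts v1.5.0-p3 on Ensembl release 87 genes (GRCm38), per the file headers, taking primary alignments only, both ends mapped, mapping quality 10 or more, and ignoring strand. STAR 2.5.4b is named in the submitters' processing notes. The deposited counts were neither normalized nor pooled, and no fragment was flagged as a duplicate, so counting error is understated by any PCR copies. Each gene's exon length is a deposited column of the same tables. The Ck19 and Sox9 columns were tied to samples by name, a further 4 columns without a matching label were left unused, and 3 groups were not analysed here.

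CPM used library totals, and log2 levels a pseudocount of 0.5 CPM. Counts were filtered (filterByExpr, minimum count 10), scaled by TMM and tested with edgeR 4.0.16 in R 4.3.3 on 4 libraries with 2 residual degrees of freedom, with p-values adjusted by Benjamini-Hochberg over 16653 genes at 0.05, two-sided. DESeq2 1.42.0, limma-voom (limma 3.58.1), other scalings, no filter, the TKO-tagged columns (with TMM and, added later, on library totals), a replicate block and leaving out each library were alternatives. The fit was tested on simulated data. Symbols were taken from GENCODE M21 for 49326 gene IDs. Copies were described as the share of a gene's 50-base stretches found in transcripts of other genes.

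The members and lists were chosen with earlier results of these data known. Values are given library by library for members past the threshold, for members with a log2 fold change of at least 1 in size and groups that do not overlap, and for the 3 highest levels per length. From each further list the 2 smallest p-values are named. Same-numbered libraries are not tied to a shared culture by the labels, so replicate numbers were not used as pairs.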

Additional observations from a re-analysis of the deposited data

How the results depend on the processing

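The direction of most members held in the organoid comparison, while the calls did not. The TKO-tagged columns, also given here, showed markers of other cells. Their values do not measure how the organoid comparison depends on the processing. Over all genes, 95 were called by edgeR, 1512 by DESeq2, 506 without the count filter, 5190 with the TKO-tagged columns in place of the Sox9 columns, 14 with 6 libraries in 1 fit and 0 with the replicate block. Leaving out 1 library at a time gave 0 to 1394, with the lone library of a group assumed to vary like the other group. Members called went from 0 to 12 with DESeq2 (11 lower), 6 without the filter (5 lower), 21 with the TKO-tagged columns (21 lower), and 0 to 12 (0 to 11 lower) on leaving out a library. The block called 0 members, as did edgeR with other scalings and limma-voom. Same-numbered libraries deviated together by a correlation of 0.0739 across 16653 genes. A correlation over all genes does not tell whether they share a culture or a batch.

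The median log2 fold change of the enzymes, -0.58, was -1.62 with the TKO-tagged columns and -0.90 to -0.28 on leaving out a library. That of the hypoxia targets, -1.07, was -2.18 and -1.47 to -0.59. That of the transport and flux genes, -0.18, was -3.67 and -0.49 to 0.083, above 0 without Sox9-derived library 1. Single genes turned direction as follows. With the TKO-tagged columns, whose libraries hold other cells, Eno1 was at -0.23, Slc16a3 at -3.85, Pfkfb4 at 0.14, Car9 at -8.02, Ddit4 at -2.81 and Ak4 at 1.12. Without the count filter Pfkl was at 0.0061. On leaving out a library, Pfkl ran from -0.37 to 0.31, Pfkp from -1.06 to 0.34, Pkm from -0.71 to 0.010, Pfkfb3 from -0.0062 to 1.16, Pfkfb4 from -0.49 to 0.083, Car9 from -0.68 to 1.62, P4ha1 from -1.25 to 0.011, Kdm3a from -0.43 to 0.39 and Ddit4 from -0.036 to 0.70. With the TKO-tagged columns on library totals without TMM, a choice made after seeing the data, 7118 genes and 27 members were called (27 lower), the medians of the enzymes, transport and flux genes and hypoxia targets were -2.38, -4.44 and -2.93, and Eno1 was at -0.99, Slc16a3 at -4.57, Car9 at -8.76, Ddit4 at -3.55 and Ak4 at 0.37. The cause was not tested. Depth was above the floor for every member: the lowest organoid counts were 40 fragments (Ak4) and 75 fragments (Hk2), both in Sox9-derived library 2.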
